A study of Mus musculus with 8 samples.

Results

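The SMN complex loads the ring of Sm proteins onto the small nuclear RNAs (snRNAs) of the spliceosome. Its 7 genes described here are Smn1, Gemin4, Gemin5, Gemin6, Gemin7, Gemin8 and Strap, of 22543 gene symbols held by both deposited tables. They were chosen by name as subunits of the complex, and the choice was made because Gemin4 was among the genes with the deepest falls under CBD in both sets of cells. The CBD against DMSO values therefore selected the set, and they are given below as a description. Where a member is said to pass an adjusted p or to be called, that is no independent support for a change. All 7 were found in both tables and all passed the minimum of 1 FPKM (fragments per kilobase of transcript per 1e6 fragments) in at least 1 group.

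RNA was sequenced from ASZ, a cell line from mouse basal cell carcinoma (a skin tumour), in 8 libraries. There were 4 groups with 2 libraries each: cells made to express RasV12, a constitutively active mutant of the GTPase Ras, with CBD or with DMSO, and wild-type cells with CBD or with DMSO, the vehicle. In what follows the cells are called RasV12 cells and ASZ cells. Both come from 1 line, the labels give neither the full name, the dose nor the exposure time of CBD, nor do they name the Ras gene or say whether the replicates were separate cultures. The series is about a switch between the Hedgehog and Ras/MAPK pathways on loss of primary cilia.

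SMN protein and Gemin2 form the core of the complex and hold the Sm proteins. Gemin5 recognises the snRNA, Gemin3 (the product of Ddx20) is a helicase that Gemin4 binds, and Gemin6, Gemin7, Gemin8 and Strap (also called Unrip) form a peripheral module. Loss of SMN1 causes spinal muscular atrophy in humans.

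The tables gave 1 FPKM value per group and gene, over both libraries of the group, so no spread between libraries can be given. The error beside each log2 ratio (± SE) was back-calculated from the authors' p-value, as the SE at which a two-sided normal test of that ratio gives that p. It is an upper bound where the p-value was at the lowest the table lists. The 2 tables' p-values differed in form, with a lowest value of 5e-05 shared by 1705 genes in RasV12 cells and values down to 0 in ASZ cells. Whether 1 program version made both is not stated here, which limits every comparison of errors or calls between RasV12 and ASZ cells, the test of their difference included. Depth, estimated from the smallest FPKM steps, was 21.1 M fragments (M is 1e6) for CBD and 32.6 M for DMSO in RasV12 cells, and 27.8 M for CBD and 28.0 M for DMSO in ASZ cells, over both libraries. A scale factor on the FPKM would shift these estimates in the same way. The summed FPKM under CBD was 1.51 times that under DMSO in RasV12 cells and 1.43 times in ASZ cells, and the median log2 ratio over genes was -0.01 and -0.44. Each of 7 basal keratinocyte markers stood between 20.7 and 6226 FPKM. None of 6 fibroblast markers passed 1 FPKM in any group, with summed levels of 0.266 to 1.50. Of the immune markers Cd68 passed 1 FPKM, at 8.99 to 53.8, as did Pecam1 of the endothelial ones at 9.44 to 23.3 and 3 of 4 melanocyte markers, whose summed level was 3.51 to 10.6 FPKM. The other immune markers (Ptprc, Cd3e and Lyz2) and the other endothelial markers (Cdh5 and Kdr) were at 0.0352 FPKM or lower in every group.

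The promoters of 4 members are shown: those of Gemin4 and Gemin6, which had the lowest log2 ratios of CBD over DMSO among the members in both sets of cells, and those of Smn1 and Strap, which had the highest. The ratio of Smn1 in RasV12 cells and that of Strap in ASZ cells did not pass an adjusted p of 0.05. Each is the 250 bases before the RefSeq start in the GRCm38.p6 build, written 5′ to 3′ on the gene's strand. Gemin4 lies at chr11:76217573-76217822 on the minus strand, Gemin6 at chr17:80224201-80224450 on the plus strand, Smn1 at chr13:100124605-100124854 on the plus strand and Strap at chr6:137734832-137735081 on the plus strand. Capitals mark matches, on either strand, to the cAMP response element TGACGTCA, the ETS core CGGAAG, the E2F site TTTCCCGC or the GC box GGGCGG.
Gemin4 promoter: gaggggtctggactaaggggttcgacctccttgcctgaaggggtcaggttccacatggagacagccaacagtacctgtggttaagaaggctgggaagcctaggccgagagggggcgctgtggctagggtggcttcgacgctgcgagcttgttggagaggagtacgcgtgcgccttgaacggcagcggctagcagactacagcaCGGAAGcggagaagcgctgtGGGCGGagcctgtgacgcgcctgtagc
Gemin6 promoter: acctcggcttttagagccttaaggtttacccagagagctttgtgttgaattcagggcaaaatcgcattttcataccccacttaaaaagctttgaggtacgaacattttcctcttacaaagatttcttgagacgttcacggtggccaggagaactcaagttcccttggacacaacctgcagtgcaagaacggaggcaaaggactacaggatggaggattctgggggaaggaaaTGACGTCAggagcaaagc
Smn1 promoter: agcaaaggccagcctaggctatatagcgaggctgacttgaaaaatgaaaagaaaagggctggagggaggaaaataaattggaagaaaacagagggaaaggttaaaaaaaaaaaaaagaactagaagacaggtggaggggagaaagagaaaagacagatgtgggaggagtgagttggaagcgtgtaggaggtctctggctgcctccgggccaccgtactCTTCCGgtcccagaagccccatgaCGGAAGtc
Strap promoter: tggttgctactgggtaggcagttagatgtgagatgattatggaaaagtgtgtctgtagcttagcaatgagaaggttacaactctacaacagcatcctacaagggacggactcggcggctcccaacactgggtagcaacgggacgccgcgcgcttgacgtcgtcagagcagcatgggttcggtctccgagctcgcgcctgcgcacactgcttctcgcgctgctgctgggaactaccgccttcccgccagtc

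Gemin4 held 1 ETS match, 47 bases before its start, and 1 GC box, 27 bases before it. Gemin6 held 1 cAMP response element, 18 bases before its start. The Smn1 promoter, at the nearer of 2 RefSeq starts to the GENCODE start, had ETS matches at 32 and 8 bases, and Strap had none of the 4 motifs. Of the members not printed, Gemin8 held 2 ETS matches and 2 GC boxes, Gemin7 held 4 GC boxes and Gemin5 held 1. Of 32851 promoters of the same length, 1.55% held the cAMP response element, 13.6% the ETS core, 0.895% the E2F site and 32.7% the GC box. The GC content was 62.8% for Gemin4, 46.8% for Gemin6, 48.4% for Smn1 and 57.6% for Strap, beside a median of 52.4% over all promoters. Gemin4 and Gemin6, both low under CBD, shared no motif of the 4, and the ETS core stood in both Gemin4 and Smn1. A match describes these letters only.

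Smn1, which encodes the subunit that gives the complex its name, had a log2 ratio above 0 in both sets of cells. The adjusted p from the authors' test was 0.075 in RasV12 cells and 0.046 in ASZ cells, from contrasts that chose the set. These lie on either side of 0.05, but the log2 ratios differed by only 0.06 ± 0.41. Smn1 stood at 37.4 FPKM with CBD and 23.8 FPKM with DMSO in RasV12 cells, a log2 ratio of 0.65 ± 0.31. ASZ cells had 29.1 FPKM with CBD and 19.4 FPKM with DMSO, a log2 ratio of 0.59 ± 0.26. These are 1.57 and 1.50 times the DMSO level, close to the factor by which the FPKM sums differed. When the FPKM sums of the groups are made equal, the log2 ratios of Smn1 become 0.06 and 0.07. In bulk RNA, fewer cells with a transcript and less of it in each cell cannot be told apart, here and for every gene below.

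Gemin2, the partner of SMN in the core and no member of the set, stood at 8.65 FPKM with CBD and 5.81 FPKM with DMSO in RasV12 cells. It stood at 4.83 FPKM with CBD and 4.14 FPKM with DMSO in ASZ cells. Neither difference passed the Benjamini-Hochberg adjustment of the authors' deposited p-values over all genes (adjusted p = 0.27 and 0.63). The ratio of Smn1 to Gemin2 FPKM was 4.33 with CBD and 4.11 with DMSO in RasV12 cells, and 6.03 with CBD and 4.69 with DMSO in ASZ cells.

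Gemin4, a subunit that joins the complex through the Gemin3 helicase, had the lowest log2 ratio of the 7. In RasV12 cells it was listed at 2.49 FPKM with CBD and 34.1 FPKM with DMSO, 13.7-fold lower with CBD. The levels in ASZ cells were 1.61 FPKM with CBD and 26.4 FPKM with DMSO, 16.5-fold lower with CBD. The log2 ratios were -3.78 (SE at most 0.93) in RasV12 cells and -4.04 (SE at most 0.49) in ASZ cells. From transcript length and estimated depth these levels stand for about 186 fragments with CBD and 3933 with DMSO in RasV12 cells, and 158 with CBD and 2618 with DMSO in ASZ cells.

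Gemin4 ranked 71 from the lowest ratio among 11070 genes in RasV12 cells and 106 among 10696 in ASZ cells. In all, 0.632% and 0.982% of genes lay below it, and 27 genes, Gemin4 itself included, were as low as Gemin4 or lower in both. Under DMSO Gemin4 was the third most abundant member per length in both sets of cells, behind Strap and Gemin7. Under CBD it was the lowest member in RasV12 cells and the next to lowest, above Gemin8, in ASZ cells. With no spread per group, neighbours in these orders cannot be separated. Gemin4 made up 0.982% of the members' summed FPKM with CBD and 15.2% with DMSO in RasV12 cells, and 0.783% with CBD and 12.5% with DMSO in ASZ cells.

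**Figure D1:**
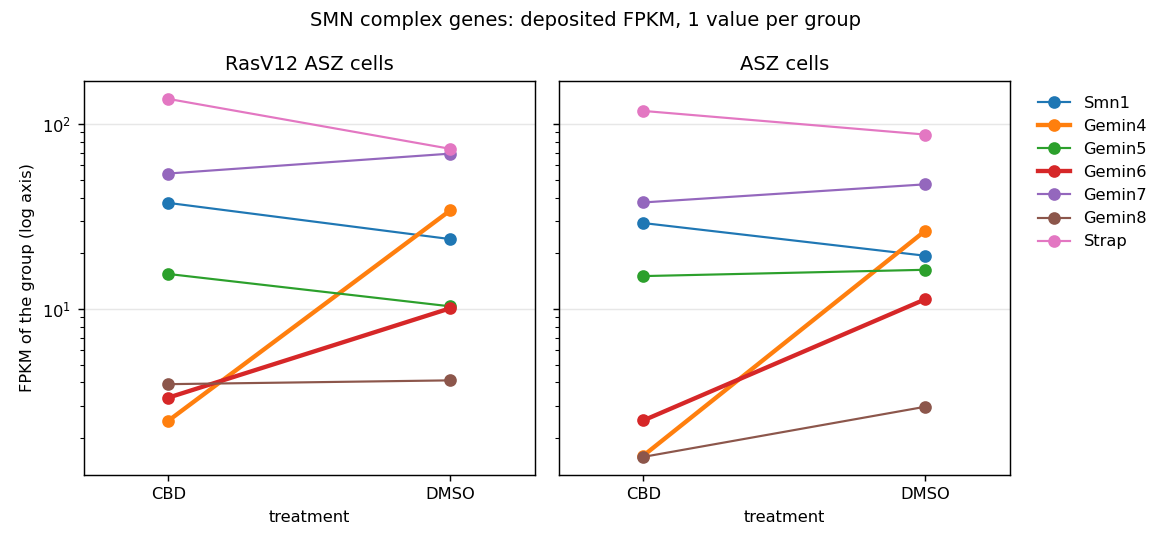
FPKM of the 7 SMN complex genes on a log axis, 1 point per group (CBD and DMSO) in RasV12 cells and ASZ cells, with lines joining the groups of 1 gene. Gemin4 lies at 2.49 FPKM with CBD and 34.1 FPKM with DMSO in RasV12 cells, and crosses below Smn1 and Gemin5 in both panels.

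Gemin4 shares its locus with other genes, which bears on what its reads can show. In the GENCODE M21 annotation its longest transcript has 2 exons and 3540 bases, and exons of Glod4, a glyoxalase-domain gene on the same strand, cover 3353 of them. An opposite-strand gene, Tlcd3a (listed as Fam57a), covers 2875 bases in the full annotation and 0 in its basic subset, and the opposite-strand gene Dbil5 covers 57. In the RefSeq table the intervals of Gemin4 and Glod4 do not overlap. Whether the authors' counting used the strand and which of these models it held are not given in the sources used here. How reads in the shared exons were assigned among these genes is therefore not known.

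Glod4 went the other way from Gemin4. It was at 60.7 FPKM with CBD and 35.5 FPKM with DMSO in RasV12 cells (log2 ratio 0.78 ± 0.28, adjusted p = 0.016 from the authors' test). ASZ cells had 43.1 FPKM with CBD and 28.8 FPKM with DMSO (0.58 ± 0.23, adjusted p = 0.020 from the authors' test). Tlcd3a fell in RasV12 cells, to 19.9 FPKM with CBD against 41.1 FPKM with DMSO (log2 ratio -1.05 ± 0.33, adjusted p = 0.0061 from the authors' test). In ASZ cells its 19.9 FPKM with CBD and 27.1 FPKM with DMSO did not pass (adjusted p = 0.17 from the authors' test). Dbil5 was at 1.01 FPKM with CBD and 1.05 FPKM with DMSO in RasV12 cells and at 1.45 FPKM with CBD and 0.344 FPKM with DMSO in ASZ cells, with no call in either. None of these neighbours had a log2 ratio near that of Gemin4, and the part that the shared exons play in its value was not tested.

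Ddx20, which encodes the Gemin3 helicase that Gemin4 binds and is no member of the set, fell in ASZ cells. It was at 3.20 FPKM with CBD and 9.22 FPKM with DMSO there (log2 ratio -1.53 ± 0.30, adjusted p = 2.2e-06 from the authors' test). In RasV12 cells it was at 6.90 FPKM with CBD and 9.96 FPKM with DMSO, a log2 ratio of -0.53 ± 0.33 that did not pass (adjusted p = 0.18 from the authors' test). The difference of the log2 ratios between RasV12 and ASZ cells, 1.00 ± 0.45, did not pass either (adjusted p = 0.15, two-sided normal test on errors implied by the authors' p-values). The ratio of Gemin4 to Ddx20 FPKM was 0.361 with CBD and 3.42 with DMSO in RasV12 cells, and 0.502 with CBD and 2.87 with DMSO in ASZ cells. Gemin4 was thus above Ddx20 under DMSO and below it under CBD.

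Gemin5, the WD-repeat subunit that recognises snRNAs, had log2 ratios of opposite sign in the 2 sets of cells. It stood at 15.4 FPKM with CBD and 10.3 FPKM with DMSO in RasV12 cells (log2 ratio 0.58 ± 0.28). Its levels in ASZ cells were 15.0 FPKM with CBD and 16.3 FPKM with DMSO (-0.11 ± 0.27). The sign of both values depends on the scaling. With equal FPKM sums Gemin5 is at -0.01 in RasV12 cells and -0.63 in ASZ cells, and with the median of all genes subtracted it is at 0.33 in ASZ cells.

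Gemin6 and Gemin7 encode Sm-like proteins that pair with each other, and their transcripts differed. Gemin6 was at 3.31 FPKM with CBD and 10.1 FPKM with DMSO in RasV12 cells, a log2 ratio of -1.61 ± 0.48. ASZ cells had 2.49 FPKM with CBD and 11.3 FPKM with DMSO, a log2 ratio of -2.18 ± 0.39. These are levels 3.04-fold and 4.52-fold lower with CBD, the second lowest of the members in each set of cells, and 11.6% and 12.3% of all genes had a lower ratio. The estimated fragments were 79 with CBD and 372 with DMSO in RasV12 cells, and 79 with CBD and 357 with DMSO in ASZ cells.

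Gemin7 was at 54.0 FPKM with CBD and 69.2 FPKM with DMSO in RasV12 cells (-0.36 ± 0.30). In ASZ cells it was at 37.7 FPKM with CBD and 47.2 FPKM with DMSO (-0.33 ± 0.26), and this value becomes 0.11 with the median of all genes subtracted. The FPKM ratio of Gemin6 to Gemin7 was 0.0614 with CBD and 0.146 with DMSO in RasV12 cells, and 0.0662 with CBD and 0.239 with DMSO in ASZ cells. As both genes sit in the shortest of 10 length bins, at 1134 and 1023 bases, this ratio compares genes of like length. No scaling of the groups can change how it differs between them, and its log2 change, CBD over DMSO, was -1.25 ± 0.57 in RasV12 cells and -1.85 ± 0.47 in ASZ cells. These errors combine the implied SEs of both genes as if independent. Zfp296, an opposite-strand gene whose interval overlaps that of Gemin7 with 0 shared exon bases, rose in both, with log2 ratios of 1.44 ± 0.39 and 0.74 ± 0.28.

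Gemin8, which bridges SMN and the Gemin6 and Gemin7 pair, was the least abundant member under DMSO. It stood at 3.92 FPKM with CBD and 4.11 FPKM with DMSO in RasV12 cells (log2 ratio -0.07 ± 0.42). In ASZ cells it stood at 1.58 FPKM with CBD and 2.96 FPKM with DMSO (-0.90 ± 0.40), resting on 85 fragments with CBD and 159 with DMSO. Strap, a WD-repeat protein that binds this module and is also known as a partner of the TGF-beta receptors, was the most abundant member in all 4 groups. It stood at 137 FPKM with CBD and 73.4 FPKM with DMSO in RasV12 cells (0.90 ± 0.27), and at 118 FPKM with CBD and 87.7 FPKM with DMSO in ASZ cells (0.42 ± 0.22). With equal FPKM sums the value becomes 0.30 in RasV12 cells and -0.10 in ASZ cells. Strap made up 54.0% of the members' summed FPKM with CBD and 32.6% with DMSO in RasV12 cells, and 57.4% with CBD and 41.5% with DMSO in ASZ cells.

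**Figure D2:**
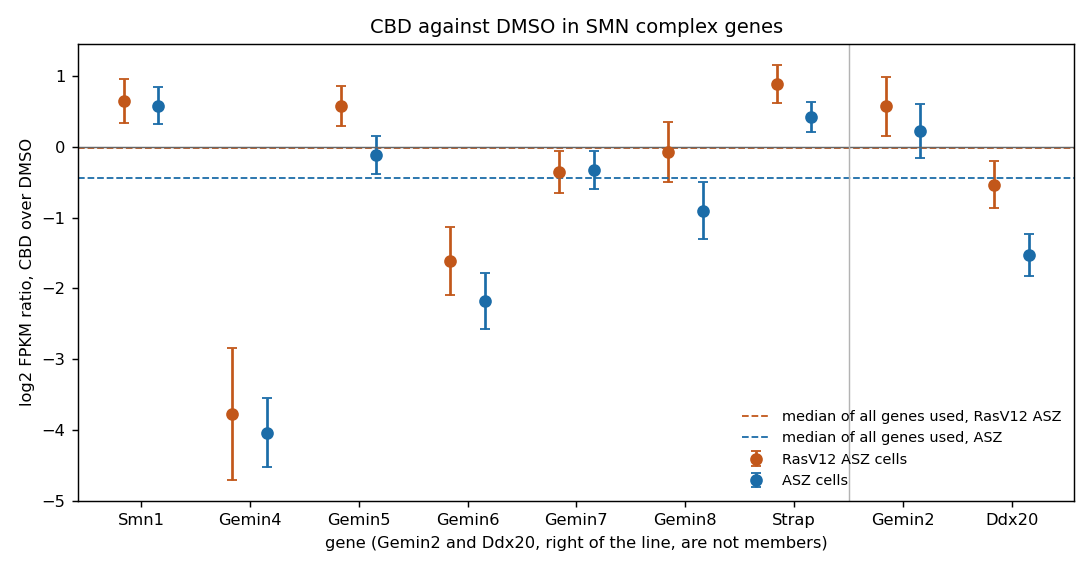
Log2 FPKM ratio of CBD over DMSO for the 7 members and, right of the line, Gemin2 and Ddx20, with RasV12 cells left of ASZ cells. Bars are ± 1 implied SE (an upper bound for Gemin4) and dashed lines the median over all genes; Gemin4 and Gemin6 lie lowest in both.

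By the rule of adjusted p under 0.05, 1 of the 7 was called higher in RasV12 cells (Strap), where 18.7% of all genes were. In those cells 2 of the 7 were called lower (Gemin4 and Gemin6), where 24.4% of all genes were. In ASZ cells 1 of the 7 was called higher (Smn1), where 14.0% of all genes were, and 3 were called lower (Gemin4, Gemin6 and Gemin8), where 42.4% of all genes were. The median log2 ratio of the members was -0.07 beside -0.01 for all genes in RasV12 cells, and -0.33 beside -0.44 in ASZ cells. As the same contrasts chose the set, these counts are listed with nothing read from them. As deposited, Gemin4 and Gemin6 had the lowest ratios, and the other members lay on both sides of 0. With equal FPKM sums, 2 of the 7 lay above 0 in RasV12 cells and 1 in ASZ cells.

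The members were also set against Smn1 within each group, which removes any common scale but not the trend with transcript length given below. Errors combine the implied SEs of both genes as if independent. Gemin4 had a log2 change of -4.43 (SE at most 0.98) in RasV12 cells and -4.63 (SE at most 0.56) in ASZ cells. Gemin6 had -2.26 ± 0.57 and -2.76 ± 0.47, and Gemin7 -1.01 ± 0.43 and -0.91 ± 0.37. Strap had 0.25 ± 0.41 and -0.16 ± 0.34, within its error of Smn1. Gemin8 had -0.72 ± 0.52 and -1.49 ± 0.48, and Gemin5 -0.07 ± 0.42 and -0.70 ± 0.38. Gemin4 was lowest and Gemin6 next in both sets of cells. The next lowest was Gemin7 in RasV12 cells and Gemin8 in ASZ cells.

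The sign of the Gemin4 and Gemin6 values held under each scaling tried. Gemin4 was at -3.77 in RasV12 cells and -3.60 in ASZ cells with the median of all genes subtracted, and at -4.37 and -4.56 with equal FPKM sums. Transcript length also moved with the ratio over all genes: the median log2 ratio was 0.59 in RasV12 cells and 0.66 in ASZ cells in the shortest of 10 bins of transcript length, and -0.67 and -1.57 in the longest. With the median of its own length bin subtracted, Gemin4 was at -3.67 and -3.40 and Gemin6 at -2.19 and -2.83. Gemin5, with 6213 bases the longest member, was at 1.15 and 1.25 by this measure, and its sign in ASZ cells turned. Smn1, with 1222 bases, was below Gemin5 by this measure, at 0.25 in RasV12 cells and 0.32 in ASZ cells. Gemin7 was at -0.94 and -0.98, further from 0 than as deposited.

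**Figure D3:**
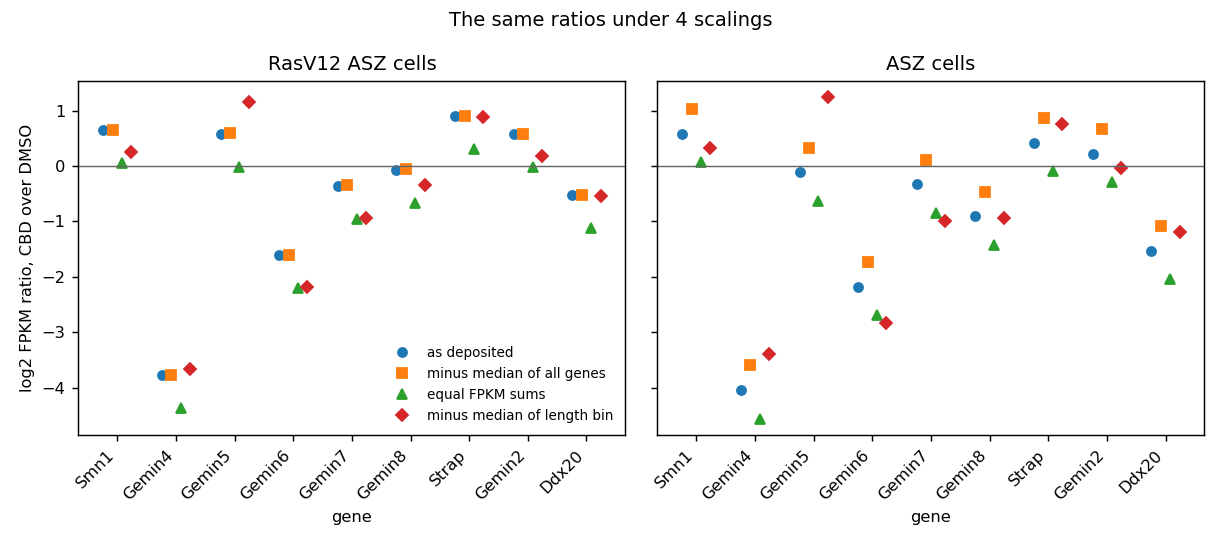
Log2 FPKM ratio of CBD over DMSO for the members and for Gemin2 and Ddx20 under 4 scalings, RasV12 cells left and ASZ cells right. Gemin4 lies between -4.56 and -3.40 over all 8 points, whereas Gemin5 has points on both sides of 0.

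The CBD responses of RasV12 and ASZ cells were set against each other member by member. The log2 ratio in RasV12 cells minus that in ASZ cells was 0.26 (SE at most 1.05) for Gemin4, 0.57 ± 0.62 for Gemin6, 0.06 ± 0.41 for Smn1 and -0.03 ± 0.40 for Gemin7. It was 0.83 ± 0.58 for Gemin8, 0.69 ± 0.39 for Gemin5 and 0.47 ± 0.34 for Strap. None of the 7 was called for this difference, where 9.23% of 10399 genes were. This does not show that the responses were alike, and for Gemin4 the SE is set by the lowest p of each table.

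Levels in RasV12 cells against ASZ cells come from separately normalized tables and are given without a test, as log2 differences minus the median over genes. Under DMSO they were -0.83 for Gemin5, -0.43 for Strap, -0.33 for Gemin6, 0.12 for Smn1, 0.19 for Gemin4, 0.30 for Gemin8 and 0.38 for Gemin7. The median size over all genes was 0.29, and 11.0% of genes had a larger size than Gemin5. Under CBD they ran between -0.57 for Gemin5 and 0.70 for Gemin8, beside a median size of 0.41, and Gemin4 was at 0.02. These values depend on the centring, which subtracted 0.17 under DMSO and 0.61 under CBD. Without it Gemin4 was at 0.37 under DMSO and 0.63 under CBD. Under CBD, the values of Smn1, Gemin5, Gemin6, Gemin7 and Strap then change sign, to 0.36, 0.04, 0.41, 0.52 and 0.22, and Gemin8 is at 1.31.

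The genes with the pattern nearest to Gemin4 over the 4 groups, among 10411 compared by Euclidean distance of mean-centred log2 FPKM, were Ttll4 (distance 0.11), Map4k3 (0.15), Depdc5 (0.18), Tmem131l (0.27) and L3mbtl2 (0.28). Ttll4, a tubulin glutamylase, was at 0.454 FPKM with CBD and 5.83 FPKM with DMSO in RasV12 cells, and at 0.305 FPKM with CBD and 4.70 FPKM with DMSO in ASZ cells. Map4k3, a protein kinase, was at 0.992 FPKM with CBD and 12.9 FPKM with DMSO in RasV12 cells, and at 0.576 FPKM with CBD and 10.8 FPKM with DMSO in ASZ cells. All 5 had lower DMSO levels than Gemin4, and under CBD all 5 were under 1 FPKM in both sets of cells. The distances rest on 1 value per group and carry no error, so the order of these genes cannot be resolved.

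The rest of the snRNP pathway was described with 9 lists of 87 genes, none of them a member. In RasV12 cells 22 of 86 list genes measured rose and 11 fell (25.6% and 12.8%, beside 18.7% and 24.4% of all genes), with a median log2 ratio of 0.27. In ASZ cells 15 of 85 rose and 36 fell (17.6% and 42.4%, beside 14.0% and 42.4%), with a median of -0.31. This split depends on scaling: with equal FPKM sums 2 rose and 29 fell in RasV12 cells and 5 rose and 46 fell in ASZ cells, and with medians subtracted 32 rose and 20 fell in ASZ cells. Over all genes, 2072 rose and 2705 fell in RasV12 cells as deposited, 252 and 4705 with equal sums, and 1501 rose and 4532 fell in ASZ cells, 431 and 6347 with equal sums, and 2971 and 3286 with medians subtracted. Calls below are of the deposited values unless a scaling is named. Beside each list stands its median after the median of each gene's length bin was subtracted, an alternative added after seeing the data, which over all list genes was 0.08 in RasV12 cells and -0.01 in ASZ cells.

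The Sm core proteins, which the complex loads onto snRNA, were higher or not called. In RasV12 cells 3 of 7 rose and none fell (median log2 ratio 0.62), where 18.7% of all genes rose and 24.4% fell. In ASZ cells 5 of 7 rose and none fell (median 0.73), where 14.0% of all genes rose and 42.4% fell. The Sm core genes are short, with a median transcript of 1055 bases. With the length bin subtracted their median was 0.35 and 0.14. With equal FPKM sums the counts were 0 risen and 2 fallen in RasV12 cells and 2 risen and 1 fallen in ASZ cells. Snrpg stood at 637 FPKM with CBD and 333 FPKM with DMSO in RasV12 cells (adjusted p = 0.0029) and at 700.3 FPKM with CBD and 309 FPKM with DMSO in ASZ cells (adjusted p = 1.0e-06 from the authors' test). Snrpd2 stood at 385 FPKM with CBD and 224 FPKM with DMSO in RasV12 cells (adjusted p = 0.013), and at 399 FPKM with CBD and 186 FPKM with DMSO in ASZ cells (adjusted p = 6.5e-06 from the authors' test). Snrpf rose in both as well, by log2 ratios of 0.97 ± 0.32 and 0.80 ± 0.25.

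Genes that act beside the complex in Sm assembly, the pICln and methylosome group, held 3 risen and 1 fallen of 6 in RasV12 cells (median log2 ratio 0.62). Of all genes there, 18.7% rose and 24.4% fell. In ASZ cells 0 rose and 1 fell of 6 (median 0.21), where 14.0% of all genes rose and 42.4% fell. With equal FPKM sums, 0 rose and 1 fell in RasV12 cells, and 0 rose and 2 fell in ASZ cells. With the length bin subtracted, the medians were 0.42 and -0.06. Clns1a, which encodes the Sm chaperone pICln, rose in RasV12 cells, to 42.9 FPKM with CBD against 27.4 FPKM with DMSO (adjusted p = 0.041 from the authors' test). Its values in ASZ cells were 27.3 FPKM with CBD and 21.9 FPKM with DMSO (adjusted p = 0.23 from the authors' test). Coprs, a partner of the arginine methyltransferase PRMT5, rose in RasV12 cells, to 38.2 FPKM with CBD against 15.0 FPKM with DMSO (adjusted p = 0.0017 from the authors' test). Riok1, another PRMT5 adaptor, fell in both, with log2 ratios of -0.99 ± 0.38 in RasV12 cells and -0.93 ± 0.31 in ASZ cells.

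Genes of the steps before and after Sm loading were described in the same way. Of the 19 genes of snRNA transcription and 3′ end processing, 2 rose and 4 fell in RasV12 cells (median log2 ratio -0.02). There 18.7% of all genes rose and 24.4% fell. In ASZ cells 1 rose and 10 fell (median -0.75), where 14.0% of all genes rose and 42.4% fell. With equal FPKM sums, 1 rose and 9 fell in RasV12 cells, and 0 rose and 15 fell in ASZ cells. With the median of all genes subtracted, 2 rose and 6 fell in ASZ cells. With the length bin subtracted, the medians of the list were 0.12 and -0.21. Snapc1, a subunit of the snRNA promoter complex, fell to 1.56 FPKM with CBD against 4.87 FPKM with DMSO in RasV12 cells (adjusted p = 0.0041) and to 0.981 FPKM with CBD against 3.97 FPKM with DMSO in ASZ cells (adjusted p = 4.8e-06 from the authors' test). Ints2, of the Integrator complex that cuts snRNA 3′ ends, fell to 4.30 FPKM with CBD against 8.48 FPKM with DMSO in RasV12 cells, and to 2.49 FPKM with CBD against 10.1 FPKM with DMSO in ASZ cells (adjusted p = 0.0058 and 1.7e-12 from the authors' test).

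Of 10 genes of snRNP export, cap hypermethylation, import and Cajal bodies, 1 rose and 2 fell in RasV12 cells (median log2 ratio -0.03). There 18.7% of all genes rose and 24.4% fell. In ASZ cells 0 rose and 8 fell (median -1.04), where 14.0% of all genes rose and 42.4% fell. With equal FPKM sums, 0 rose and 5 fell in RasV12 cells, and 0 rose and 8 fell in ASZ cells. With the median of all genes subtracted, 2 rose and 4 fell in ASZ cells. With length subtracted in this way, the medians were -0.30 and -0.82. Tgs1, which makes the trimethylguanosine cap after the Sm ring is loaded, fell most of them. It stood at 1.55 FPKM with CBD and 7.42 FPKM with DMSO in RasV12 cells (log2 ratio -2.26, SE at most 0.56, adjusted p = 0.00032 from the authors' test). In ASZ cells it stood at 0.908 FPKM with CBD and 6.57 FPKM with DMSO (-2.85, SE at most 0.35), with a deposited p-value at the lowest the table lists. Xpo1, the nuclear exportin, fell as well, with log2 ratios of -1.91 (SE at most 0.47) in RasV12 cells and -1.81 ± 0.27 in ASZ cells. Coil, the Cajal body scaffold, fell in ASZ cells (-1.75 ± 0.36, adjusted p = 5.2e-06), and its -0.56 ± 0.41 in RasV12 cells did not pass (adjusted p = 0.26 from the authors' test).

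**Figure D4:**
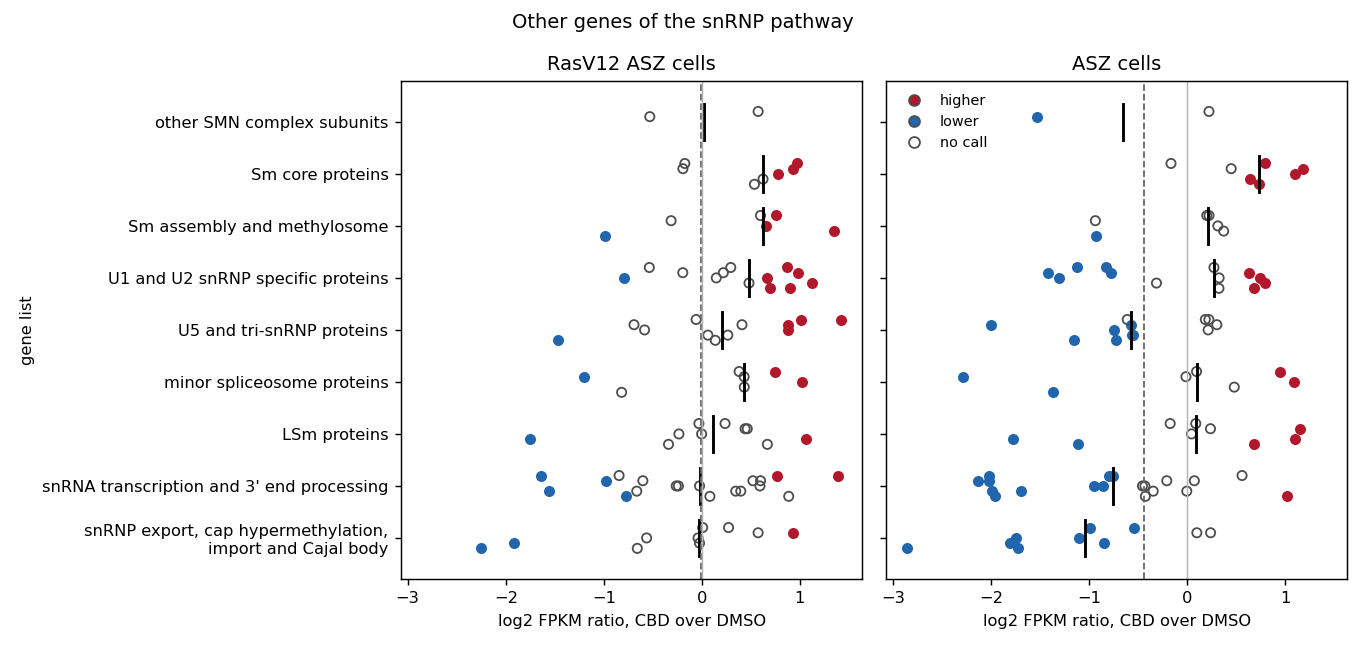
Log2 FPKM ratio of CBD over DMSO for the genes of the 9 pathway lists, RasV12 cells left and ASZ cells right, 1 point per gene, filled where called (adjusted p under 0.05). Black bars are list medians and the dashed line is the median of all genes (-0.01 and -0.44); the Sm core median lies above it at 0.62 and 0.73.

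As deposited, the proteins of the assembled snRNPs went both ways. Among U1 and U2 proteins 6 of 13 rose and 1 fell in RasV12 cells (median log2 ratio 0.48), where 18.7% of all genes rose and 24.4% fell. In ASZ cells 4 of 13 rose and 5 fell (median 0.28), where 14.0% of all genes rose and 42.4% fell. With the median of all genes subtracted, 7 rose and 3 fell in ASZ cells. With equal FPKM sums, 0 rose and 3 fell in RasV12 cells, and 0 rose and 6 fell in ASZ cells. Less the length bin, the medians were 0.43 and 0.23. Snrpa1, the U2 A' protein, rose in both, to 66.9 FPKM with CBD against 30.6 FPKM with DMSO in RasV12 cells and to 49.5 FPKM with CBD against 28.5 FPKM with DMSO in ASZ cells (adjusted p = 0.00032 and 0.0024 from the authors' test). Sf3a3 fell in both, with log2 ratios of -0.80 ± 0.31 in RasV12 cells and -1.30 ± 0.27 in ASZ cells. Among U5 and tri-snRNP proteins 4 of 12 rose and 1 fell in RasV12 cells (median 0.20). In ASZ cells 0 rose and 7 fell (median -0.57), to be read beside the shares of all genes given above. With the median of all genes subtracted, 4 rose and 2 fell in ASZ cells. With equal FPKM sums, 1 rose and 3 fell in RasV12 cells, and 0 rose and 8 fell in ASZ cells. Less the length bin, the medians were 0.25 and 0.06. Prpf31 fell in both, at 5.91 FPKM with CBD and 16.3 FPKM with DMSO in RasV12 cells and at 7.29 FPKM with CBD and 16.2 FPKM with DMSO in ASZ cells. Prpf8 and Usp39 rose in RasV12 cells, with log2 ratios of 1.42 (SE at most 0.35) and 1.01 ± 0.28, and had no call in ASZ cells.

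Of 7 minor spliceosome genes 2 rose and 1 fell in RasV12 cells (median log2 ratio 0.43), where 18.7% of all genes rose and 24.4% fell. In ASZ cells 2 rose and 2 fell (median 0.10), where 14.0% of all genes rose and 42.4% fell. With equal FPKM sums, 0 rose and 2 fell in RasV12 cells, and 1 rose and 2 fell in ASZ cells. Less the length bin, the medians were -0.15 and -0.18. Snrnp48 rose in both, with log2 ratios of 1.02 ± 0.31 and 1.09 ± 0.26. Snrnp35 fell in both, with log2 ratios of -1.21 ± 0.43 in RasV12 cells and -2.28 ± 0.43 in ASZ cells. Among LSm proteins, relatives of the Sm proteins, 1 of 10 rose and 1 fell in RasV12 cells (median 0.12). In ASZ cells 3 of 9 rose and 2 fell (median 0.09), to be read beside the same shares of all genes. With equal FPKM sums, 0 rose and 3 fell in RasV12 cells, and 2 rose and 3 fell in ASZ cells. Less the length bin, the medians were -0.08 and 0.25. Lsm10, which replaces an Sm protein in the U7 snRNP that SMN also assembles, fell to 5.17 FPKM with CBD against 17.5 FPKM with DMSO in RasV12 cells (adjusted p = 0.0011) and to 3.79 FPKM with CBD against 13.0 FPKM with DMSO in ASZ cells (adjusted p = 9.0e-05 from the authors' test). Lsm4, of the ring that binds U6 snRNA, rose in both, with log2 ratios of 1.07 ± 0.27 and 1.10 ± 0.23.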

How the data were processed

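The TruSeq RNA kit was used on total RNA, per the labels' protocols. Per the submitters' processing notes, TopHat and Cufflinks were run on mm9. The sources used here give no versions. The 2 tables deposited by the authors, 1 for RasV12 cells and 1 for ASZ cells, hold 1 FPKM per group over 2 libraries, per the file headers, and the authors' unadjusted p-value for CBD against DMSO. Rows with no name, or with a date for a name, were dropped, older symbols were updated through RefSeq synonyms, and a symbol on several rows was used only where every other row was under 10% of the highest. The genes used had a test and 1 FPKM or more in a group, 11070 in RasV12 and 10696 in ASZ cells. Deposited p-values were adjusted by Benjamini-Hochberg within each table, and genes under 0.05 were called. Log2 ratios have no pseudocount. Calculations used Python 3.11.15, pandas 2.3.3 and scipy 1.17.1 and were tested on simulated data. The members and lists were chosen with earlier results of these data known. Named genes are the members, Gemin2, Ddx20, genes overlapping a member, up to 4 called genes per list with the largest ratios, and the 5 nearest to Gemin4 in pattern. Alternatives changed the scaling, filter, pseudocount and threshold.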

Additional observations from a re-analysis of the deposited data

Results flagged for a closer look

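The CBD response differed between RasV12 and ASZ cells for 8 of 85 pathway list genes, beside 9.23% of all genes (two-sided normal test of the difference of log2 ratios on errors implied by the authors' p-values, Benjamini-Hochberg adjusted over all genes). The test sets p-values of different form against each other, which limits it. All 8 had the higher ratio in RasV12 cells, and none is a member of the SMN complex. The median log2 ratio over all genes was itself higher in RasV12 cells, at -0.01 against -0.44 in ASZ cells. How the direction split among all genes called for this difference is not given here, so the shared direction is not read as a trait of the lists. Ints1, an Integrator subunit, went opposite ways as deposited, at 62.3 FPKM with CBD and 23.8 FPKM with DMSO in RasV12 cells and at 20.0 FPKM with CBD and 34.8 FPKM with DMSO in ASZ cells. With the median of its length bin subtracted, its log2 ratio was above 0 in both, at 2.06 in RasV12 cells and 0.78 in ASZ cells. By this test on the authors' values its difference was 2.19 (SE at most 0.41, adjusted p = 1.7e-05), and 1.76 with the median of all genes subtracted in each set of cells (adjusted p = 0.0019). The other differences, from the authors' values in the same way, were 1.53 ± 0.44 for Ints7 (adjusted p = 0.012), 1.31 ± 0.42 for Prpf4 (0.027), 1.24 for Prpf8 (SE at most 0.41, 0.036) and 1.23 ± 0.36 for Sf3b4 (0.014). They were 1.18 ± 0.39 for Ints5 (0.035), 1.12 ± 0.34 for Sf3a1 (0.018) and 0.98 ± 0.34 for Snrnp200 (0.049). None of these 7 passed with the medians subtracted, with adjusted p of 0.193 (Ints7) to 0.541 (Snrnp200). Ints1, Ints5, Sf3a1 and Snrnp200 are named outside the rule for named genes, after their values were seen.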

How the results depend on the processing

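With equal FPKM sums the genes called higher were 252 in RasV12 cells and 431 in ASZ cells, those called lower in RasV12 cells 4705, and the list genes called higher 2 in RasV12 cells and 5 in ASZ cells, with 29 called lower in RasV12 cells. With the median of all genes subtracted, 2971 genes and 32 list genes were higher in ASZ cells, 20 list genes were lower there, and 286 genes differed in response between RasV12 and ASZ cells, against 960 as deposited. At an adjusted p under 0.01, 1317 genes were higher in RasV12 cells. Of 18 ratios of the members, Gemin2 and Ddx20, none changed sign with a pseudocount of 1 or 0.1, 4 did with equal sums (Gemin5 and Gemin2 in RasV12 cells, Strap and Gemin2 in ASZ cells), and 2 each did, in ASZ cells, with the median of all genes (Gemin5, Gemin7) or of the length bin (Gemin5, Gemin2) subtracted. Which scaling is right was not tested. No paired analysis was possible because each group has 1 pooled value per gene, which also leaves no fit without a library. Depth limits Gemin4, Gemin6 and Gemin8 under CBD, at 79 to 186 estimated fragments.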
